A study of Mus musculus with 12 samples.

Results

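The endocardium, the cell layer that lines the chambers of the heart, was compared between E13 and E17 of mouse development in RNA libraries made from sorted cells. All libraries labelled endocardial were taken, 4 at E13 and 2 at E17, which are 6 of the 12 libraries of the series. The other 6 libraries hold coronary endothelial cells of the same stages and served as the second population in the fit. The genes described are those that passed a filter on low counts, 15171 of the 41214 in the table.

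Endocardial cells face the blood on one side and the muscle wall on the other. They send growth factors such as neuregulin to the myocardium, they build and then remodel a matrix that separates the layers, and some of them give rise to the mesenchyme of the valves. Between mid and late gestation the ventricular wall thickens, the coronary vessels spread through it, and the hormone and flow environment of the fetus changes.

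The E13 libraries came from E13.5 embryos carrying a Nes-gfp transgene (Tg/0), in which a GFP reporter is driven by regulatory sequence of Nes, an intermediate filament gene active in growing coronary endothelium. At both stages ventricles were digested with liberase. At E13 cells negative for dapi, Ter119 and CD45 and positive for CD31 were gated as GFP-low and Emcn-high to give endocardium. The E17 libraries came from E17.5 embryos that carried the Nes-Gfp transgene (Tg/0) together with Nes-CreER (Tg/0) and the Tomato reporter allele R26 (tom/+), with 0.1 ug of tamoxifen administered at E15.5, so a Cre that tamoxifen switches on could label Nes-expressing cells with Tomato. For these the labels describe the endocardial gate as CD31+ and GFP+ and name no Emcn criterion, while the coronary gate required low Emcn. Each batch, of a step the labels do not name, held 1 endocardial and 1 coronary library of a single stage, with batches 1 to 4 at E13 and 5 and 6 at E17. Stage therefore cannot be told apart from batch, genotype, tamoxifen or gate in any value given here, and "at E17" stands for all of them. Nothing in the labels says whether replicates were separate litters, and each p-value rests on the spread among these libraries alone, which may be technical.

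Expected counts summed to between 17395783 and 27360653 in the E13 endocardial libraries and to 19168912 and 16371834 at E17, and the mitochondrial share was between 2.21% and 2.81% in all 6. Levels are given as CPM, counts scaled to one common library size, after TMM scaling, in the order of replicates 1 to 4 at E13 and 1 and 2 at E17. CPM ignores transcript length, so levels are compared between libraries and not between genes. A change is the log2 fold change, E17 minus E13, ± its standard error (SE), and a gene was called at an adjusted p under 0.05 by the quasi-likelihood F test of edgeR, adjusted over all 15171 genes after Benjamini and Hochberg. Pecam1, which encodes the CD31 of both gates, was at 1225, 1167, 1195 and 1309.7 CPM at E13 and 1488 and 1513 CPM at E17, a change of 0.29 ± 0.12 that was not called (adjusted p = 0.072). Emcn, which encodes the endomucin of the E13 gate, was higher at E17, with 538, 519, 531 and 547 CPM against 875 and 1108 CPM (change 0.89 ± 0.11, adjusted p = 1.2e-04). Nes was lower, with 284, 254, 243 and 267 CPM against 146 and 156 CPM (change -0.79 ± 0.10, adjusted p = 7.7e-05). In bulk libraries, fewer cells of a type and less RNA per cell cannot be told apart.

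Of the 15171 genes, 2462 were called higher at E17 (16.2%) and 2368 lower (15.6%), and 723 and 318 of them changed at least 2-fold. Both E17 libraries lay above or both below the E13 range for 7975 of all tested genes (52.6%), and for 4793 of the 4830 called. With 2 libraries at E17, each of them weighed on the counts: without E17 replicate 1 the counts were 1605 and 1323, and without E17 replicate 2 they were 1578 and 1600. Gene lists are described below by how many tested members were called, to be read against 16.2% and 15.6%, and by their median change, to be read against a median of 0 over all tested genes. The lists were chosen with earlier results of these data known, so their shares describe the members and are no test of a list. Some genes stand in more than 1 list. Among lists with no member called in a direction, edgeR's unadjusted p was under 0.05 in that direction for 1 hypoxia gene, 1 platelet marker and 2 cytosolic ribosomal protein genes. It was so for 0 members of the fetal timing, natriuretic peptide, replication, mitosis, circadian clock and immediate early lists. DESeq2 and limma also called 0 in that direction in these 6 lists.

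**Figure D1:**
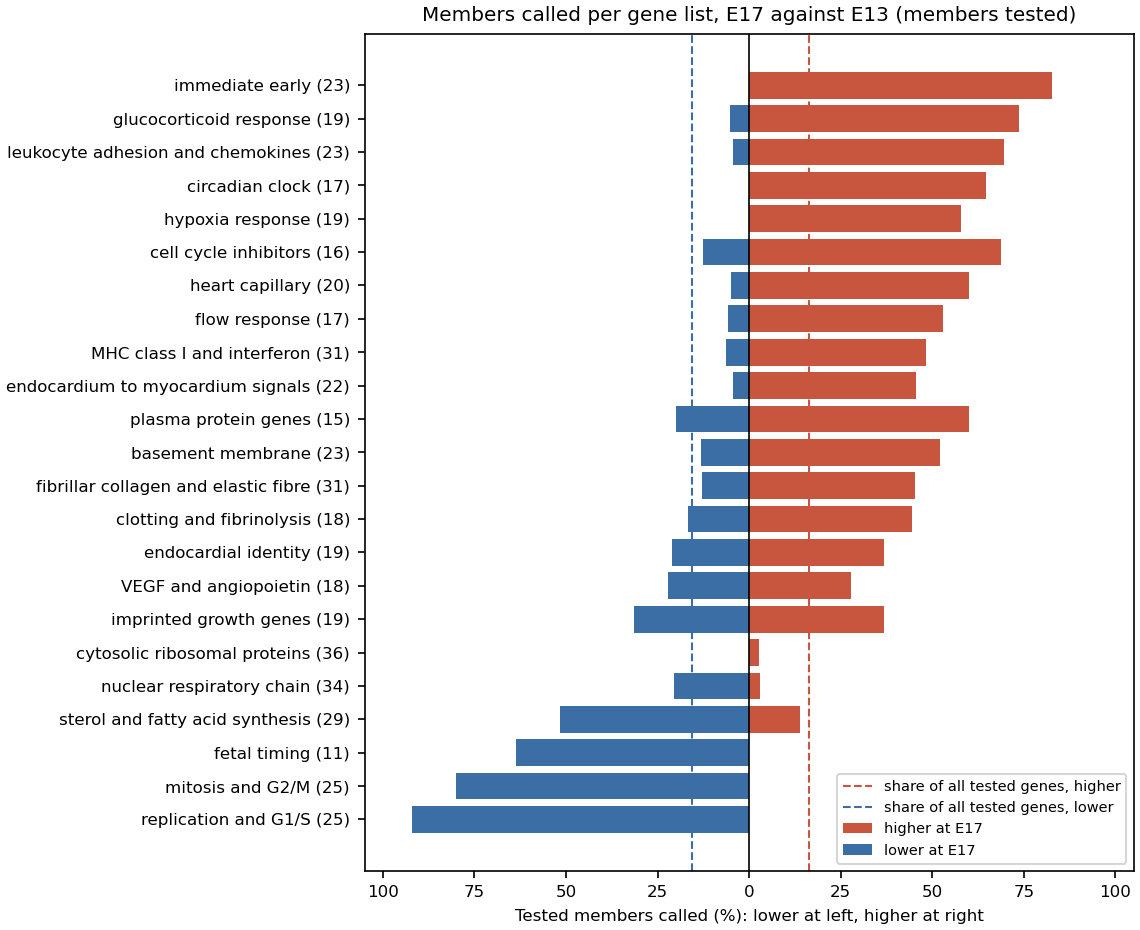
Share of the tested members of each gene list that was called higher at E17 (red, to the right) or lower (blue, to the left) in the endocardial libraries, in percent, with the number of tested members in parentheses; the dashed lines mark the shares over all tested genes, 16.2% and 15.6%. Replication and mitosis genes stand at the blue end and immediate early genes at the red end.

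Genes that mark endocardium moved in both directions. Of 19 tested members of the endocardial identity list, 7 were higher at E17 and 4 were lower, with a median change of 0.19. The 3 largest rises were those of the ligand genes Cytl1, Bmp6 and Edn1, and the transcription factors of the list were divided. Without E13 replicate 2, E17 replicate 1 or E17 replicate 2 the count of higher members was 4, and without E13 replicates 1, 3 or 4 or either E17 library the count of lower members was 2. With the 6 endocardial libraries fitted alone, 11 were higher.

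Npr3 (chr15:11839896-11907287, GRCm38) encodes the clearance receptor that removes natriuretic peptides, and is widely used to mark endocardium. It was at 1728, 1589, 1688 and 1715 CPM at E13 and at 2223 and 2406 CPM at E17. Both E17 libraries were above all 4 E13 libraries, and the change was 0.46 ± 0.16, or 1.38-fold (adjusted p = 0.048). This call was lost in 13 of 22 alternative fits, among them those without E17 replicate 1, without E17 replicate 2 and with other size factors, with adjusted p from 0.00012 to 0.23. Edn1 (chr13:42301476-42307990) encodes endothelin 1, a peptide that acts on neighbouring muscle and mesenchyme. It was at 37.7, 33.3, 30.1 and 32.2 CPM at E13 and 92.7 and 110.3 CPM at E17. The groups did not overlap, and Edn1 rose 3.04-fold (1.60 ± 0.11, adjusted p = 1.5e-06). Of 6 tested endothelin genes 2 were higher and 2 lower, and no lower one was called without E17 replicate 1 or E17 replicate 2. Ece1, which cuts the precursor to the active peptide, was higher (0.39 ± 0.07, adjusted p = 0.002). Ednra, the receptor of muscle and mesenchyme, was low in all libraries, with 0.752, 0.913, 1.40 and 1.249 CPM at E13 and 0.218 and 0.389 CPM at E17 (-1.81 ± 0.61, adjusted p = 0.041), and its call was also lost without E13 replicate 2, 3 or 4, without E13 coronary replicate 2 or 4 and with batch as a random effect (adjusted p up to 0.31). Ednrb, the other receptor, was lower (-0.58 ± 0.15, adjusted p = 0.0096), a call that was lost without E17 replicate 1 or E17 replicate 2 (adjusted p up to 0.078).

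Cytl1, which encodes a small secreted cytokine-like protein, had the largest rise in the identity list. Its levels were 24.5, 16.1, 19.99 and 22.6 CPM at E13 and 160.1 and 166 CPM at E17, 7.81-fold higher (2.97 ± 0.16, adjusted p = 3.4e-07). Bmp6, a bone morphogenetic protein made by endocardial cells, was at 30.2, 22.8, 21.2 and 28.7 CPM at E13 and 149.9 and 173 CPM at E17 (2.65 ± 0.16, adjusted p = 5.2e-07). For both genes every E17 value was far above every E13 value. Hapln1, which encodes a protein that links hyaluronan to proteoglycans in the cardiac jelly and cushions, moved the other way. It was at 156, 179.9, 183 and 201 CPM at E13 and 46.2 and 27.2 CPM at E17, 4.89-fold lower (-2.29 ± 0.19, adjusted p = 4.4e-06). Gata5, an early endocardial transcription factor, was at 48.3, 54.9, 57.6 and 53.2 CPM at E13 and 30.8 and 18.8 CPM at E17 (-1.10 ± 0.15, adjusted p = 2.1e-04). The 2 E17 values of Gata5 were themselves apart, both below the lowest E13 value. Nfatc1, a transcription factor of endocardium and valve, was 1.19-fold lower (-0.25 ± 0.08, adjusted p = 0.033), and the adhesion receptor gene Adgrg6 was 1.69-fold lower (-0.76 ± 0.26, adjusted p = 0.04). Changes of Gata4 (-0.30 ± 0.11), Hand2 (0.19 ± 0.08), Cdh11 (0.28 ± 0.12) and Plvap (0.14 ± 0.13) were not called. Gata6 and Foxc1 were called higher (0.55 ± 0.18 and 0.35 ± 0.10). The calls of Nfatc1, Adgrg6, Gata6 and Foxc1 were each lost without E17 replicate 1 or E17 replicate 2, with adjusted p up to 0.25, 0.21, 0.17 and 0.2 over all alternatives. They were also lost without E13 replicate 1, 3 or 4 for Nfatc1, without any of the E13 replicates for Adgrg6 and Gata6, and without E13 replicate 2 for Foxc1.

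**Figure D2:**
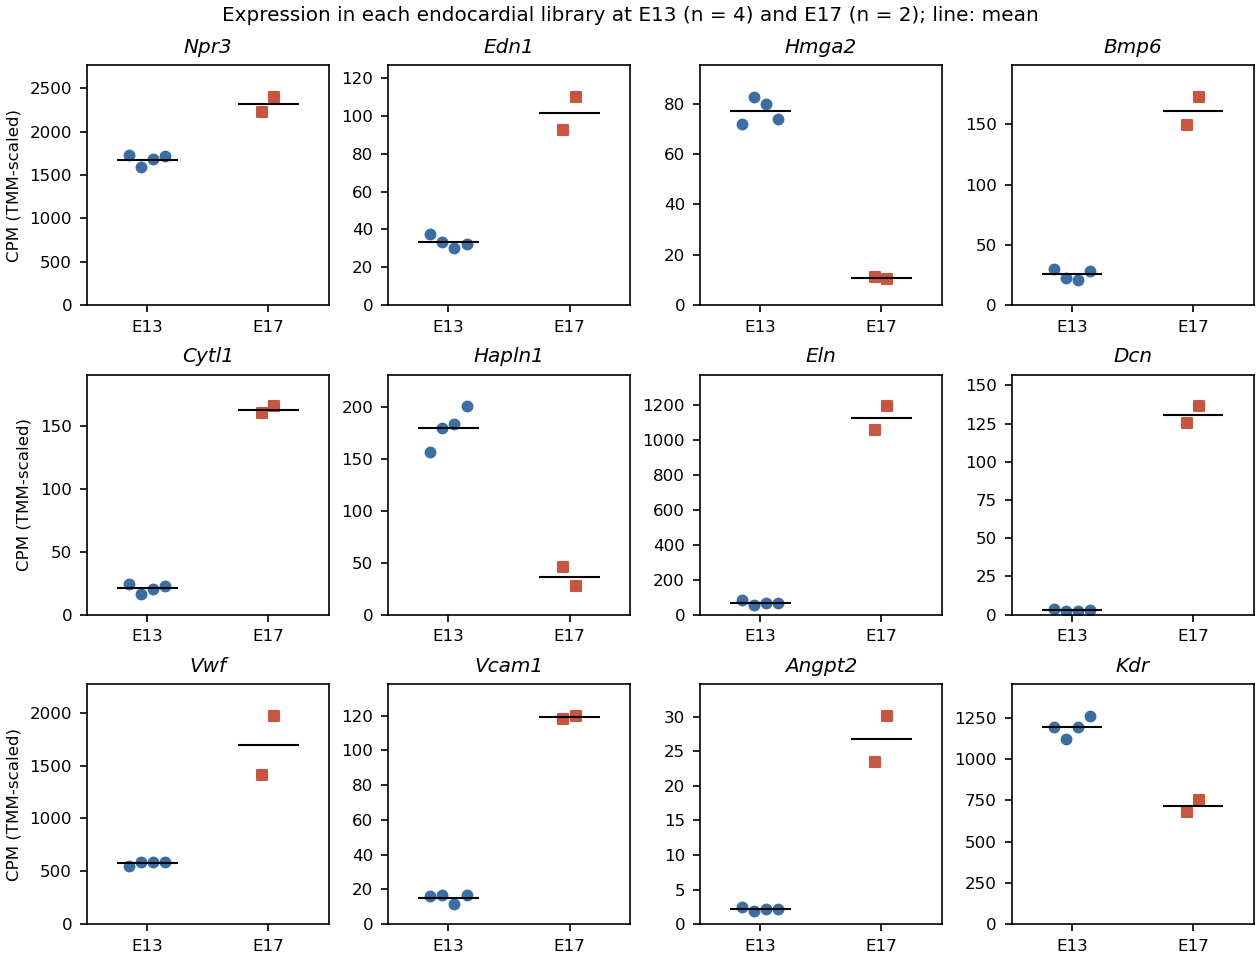
CPM of 12 genes in each of the 4 E13 (circles) and 2 E17 (squares) endocardial libraries, with a line at each mean; each panel has its own axis from 0. Npr3 was higher by a small margin, Eln and Dcn rose from near the bottom of the axis, and Hmga2, Hapln1 and Kdr fell without overlap.

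Among signals that endocardium sends to the muscle wall, rises outnumbered falls. Of 22 tested members of that list, 10 were called higher, 1 lower and 11 neither, with a median change of 0.43. Nrg1, the neuregulin that drives trabeculation, was at 27.5, 32.9, 33.03 and 28.2 CPM at E13 and 42.9 and 44.5 CPM at E17. All E17 values exceeded all E13 values (0.52 ± 0.14, adjusted p = 0.011), but the call was lost without E17 replicate 1 or E17 replicate 2 (adjusted p up to 0.083). Another EGF family ligand, Hbegf, was 2.07-fold higher (1.05 ± 0.17, adjusted p = 7.4e-04). Of ligands for other receptors, Pdgfb was 2.12-fold higher (1.09 ± 0.22, adjusted p = 0.0026), Bmp4 rose from between 1.49 and 3.33 CPM to 9.11 and 8.43 CPM, Tgfb3 from between 7.49 and 11.5 CPM to 21.6 and 20.9 CPM, and Jag1 from between 34.4 and 44.7 CPM to 70.2 and 60.9 CPM. Vcan, the large proteoglycan of the cardiac jelly, was at 192, 158, 161 and 164 CPM at E13 and 641 and 573 CPM at E17 (1.85 ± 0.22, adjusted p = 7.5e-05). Adamts1, a protease that cuts versican, was also higher (0.89 ± 0.11, adjusted p = 7.3e-05). Smarca4, the chromatin remodeller known to repress Adamts1 in endocardium, was the member that fell (-0.64 ± 0.05, adjusted p = 2.5e-06).

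Notch signalling in endocardium patterns the trabeculae. Of 19 tested pathway genes 4 were higher, namely Jag1, Dtx1 (2.90 ± 0.40), Lfng (1.95 ± 0.29) and Hes1 (0.53 ± 0.09), and 3 were lower, namely Dll1 (-0.53 ± 0.08), Notch3 (-1.87 ± 0.39) and Nrarp (-0.74 ± 0.17), the last call being lost without E17 replicate 2. The lower count was 5 without either E17 coronary library and 6 with endocardial libraries only. Notch1 was at 853, 796, 829 and 849 CPM at E13 and 826 and 822 CPM at E17, a change of -0.01 ± 0.06 (adjusted p = 0.89). Changes of the ligand gene Dll4 (-0.17 ± 0.18) and of the targets Efnb2 (0.14 ± 0.12) and Hey1 (-0.13 ± 0.16) were not called either. Of 10 tested natriuretic peptide genes 5 were higher and none was lower, a count that was 2 without E17 replicate 1 and 3 without E17 replicate 2, E17 coronary replicate 2 or any of the E13 endocardial libraries. Beside Npr3 they were Corin, the protease that activates atrial natriuretic peptide (0.73 ± 0.12, adjusted p = 8.7e-04), the receptor genes Npr2 (1.31 ± 0.14, adjusted p = 4.0e-05) and Npr1 (0.31 ± 0.11), and the ligand gene Nppc (2.43 ± 0.52), which stayed under 1 CPM. The call of Npr1 was lost without any of the 4 E13 or 2 E17 endocardial libraries, and that of Nppc without E17 replicate 1. In the BMP and TGF-beta list 12 of 29 tested members were higher and 2 lower, the receptor genes Tgfbr1 (-0.32 ± 0.09) and Tgfbr3 (-0.47 ± 0.13), both with no call without E17 replicate 1 (adjusted p up to 0.11 and 0.15). The receptor gene Acvrl1 was at 30.8, 29.4, 33.2 and 34.1 CPM at E13 and 79.9 and 90.7 CPM at E17 (1.42 ± 0.17, adjusted p = 8.2e-05). Eng, its co-receptor, was 1.75-fold higher (0.81 ± 0.10, adjusted p = 8.2e-05), and the inhibitory Smads Smad6 (0.50 ± 0.09) and Smad7 (0.81 ± 0.10) were both higher.

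Genes that mark an early developmental age fell. The fetal timing list holds Lin28b, Hmga2, the IGF2 mRNA-binding proteins and other genes that let-7 microRNAs or their antagonists govern in early tissues. Of its 11 tested members 7 were lower at E17 and none was higher, with a median change of -1.15. Hmga2 (chr10:120361275-120476469), an architectural chromatin protein of growing embryonic cells, was at 71.8, 82.9, 79.9 and 74.04 CPM at E13 and 11.02 and 10.4 CPM at E17. It fell 7.18-fold with little spread in either group (-2.84 ± 0.08, adjusted p = 3.9e-09). Lin28b, which blocks let-7 maturation, was at 7.25, 10.2, 10.6 and 10.5 CPM at E13 and 3.11 and 2.59 CPM at E17 (-1.75 ± 0.22, adjusted p = 9.2e-05). Arid3a (-2.10 ± 0.11), Igf2bp1 (-1.55 ± 0.09), Hmga1 (-1.53 ± 0.10), Igf2bp3 (-0.84 ± 0.06) and Igf2bp2 (-0.46 ± 0.07) fell as well, each without overlap between stages. In the coronary libraries the same list had a median change of -1.15.

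Imprinted growth genes were split, with 7 of 19 tested members higher and 6 lower. Igf2, the fetal growth factor, was at 18161, 16462, 17148 and 18674 CPM at E13 and 24291 and 26131 CPM at E17 (0.52 ± 0.07, adjusted p = 1.8e-04). Its partner on the locus, the RNA H19, was 1.17-fold higher (0.23 ± 0.07, adjusted p = 0.028), a call lost without E13 replicate 2, E13 replicate 3 or either E17 library (adjusted p up to 0.15). An overlapping annotated gene shares 62.8% of the exon bases of Igf2 on the same strand, so reads of the pair may have been split if both were counted. Cdkn1c, an imprinted inhibitor of the cell cycle, was at 3651, 3711, 3915 and 3729 CPM at E13 and 1767 and 1790.0 CPM at E17, 2.11-fold lower (-1.08 ± 0.18, adjusted p = 6.5e-04). The library kit marks no strand, and 30.7% of the exon bases of Cdkn1c lie opposite an antisense gene. Peg10 (-1.24 ± 0.14), Grb10 (-0.43 ± 0.05) and Magel2 (-2.16 ± 0.33) were lower, and Gnas (0.35 ± 0.07) and Sgce (0.42 ± 0.06) were higher. Of the other genes named here, Nrarp (79.4%), Jund (52.6%), Nos3 (25.2%), Dll1 (20.5%) and Fbn1 (20.1%) share at least 20% of their exon bases with another annotated gene.

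Cell cycle genes fell in both of the phases listed. Of 25 tested genes of replication and the G1/S transition 23 were lower and none was higher (median change -0.67). Of 25 tested genes of mitosis and G2/M 20 were lower and none was higher (median change -0.64). The mitotic count was 7 without E17 replicate 1 and the replication count was between 17 and 23 in all fits that left out 1 library. To show what such promoters hold, 3 mitotic members are printed from the RefSeq promoter table (GRCm38.p6, 250 bases before to 50 after the start, 5′ to 3′). They are the called members with the smallest adjusted p whose promoter holds both motifs searched, and capitals mark the motifs: TTTGAA, the core of the cell cycle homology region, and CCAAT, the CCAAT box, written ATTGG where it lies on the other strand. Plk1, a mitotic kinase, is at chr7:122159185-122159484 (+), Mki67, the proliferation marker Ki-67, at chr7:135716330-135716629 (-), and Aurka, the spindle kinase Aurora A, at chr2:172370521-172370820 (-).
Plk1: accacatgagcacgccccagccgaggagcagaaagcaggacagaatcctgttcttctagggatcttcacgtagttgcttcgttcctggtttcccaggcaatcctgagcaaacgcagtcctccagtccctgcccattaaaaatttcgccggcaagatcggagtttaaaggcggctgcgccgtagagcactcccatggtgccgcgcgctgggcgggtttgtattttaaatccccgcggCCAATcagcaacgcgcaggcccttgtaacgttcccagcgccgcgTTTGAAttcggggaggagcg
Mki67: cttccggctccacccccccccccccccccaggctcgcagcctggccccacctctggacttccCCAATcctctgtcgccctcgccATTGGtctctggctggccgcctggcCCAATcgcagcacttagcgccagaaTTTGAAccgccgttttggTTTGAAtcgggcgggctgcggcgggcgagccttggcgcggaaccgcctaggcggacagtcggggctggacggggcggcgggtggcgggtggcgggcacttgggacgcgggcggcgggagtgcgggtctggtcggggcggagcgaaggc
Aurka: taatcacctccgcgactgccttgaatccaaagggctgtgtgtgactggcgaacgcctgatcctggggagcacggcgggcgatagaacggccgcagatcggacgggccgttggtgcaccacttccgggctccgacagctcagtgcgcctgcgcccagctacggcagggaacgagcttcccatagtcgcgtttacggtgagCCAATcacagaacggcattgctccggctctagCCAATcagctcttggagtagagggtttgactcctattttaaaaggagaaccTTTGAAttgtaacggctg
Promoters were matched to 17 of the 20 called mitotic members. On both strands TTTGAA was found in 12 of the 17 promoters matched to called mitotic members (70.6%) and in 17.9% of all 32851 promoters in the table. CCAAT was found in 15 of the 17 (88.2%) and in 37.4% of all. A match describes the letters in the window and shows no binding.

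These 3 genes had 53.7, 48.7, 38.8 and 39.5 CPM (Plk1), 299.7, 268, 228 and 253 CPM (Mki67) and 35.5, 31.6, 25.04 and 28.2 CPM (Aurka) at E13. At E17 they had 20.03 and 27.1 CPM, 138 and 181 CPM and 14.95 and 19.3 CPM. No E17 value reached the lowest E13 value in any of them, and E13 replicates 1 and 2 were above replicates 3 and 4 in all 3. The changes were -0.95 ± 0.14 (adjusted p = 3.8e-04), -0.72 ± 0.12 (adjusted p = 5.6e-04) and -0.82 ± 0.13 (adjusted p = 6.0e-04). Among replication genes, Mcm4, a subunit of the replicative helicase, was at 165, 172, 153 and 153 CPM at E13 and 89.8 and 105.1 CPM at E17 (-0.72 ± 0.07, adjusted p = 2.0e-05). Ccne1, the G1/S cyclin E1, was 2.09-fold lower (-1.06 ± 0.17, adjusted p = 6.3e-04). Pcna (-0.09 ± 0.09) and E2f1 (-0.20 ± 0.12) were the replication members with no call. Of 16 tested cell cycle inhibitors 11 were higher and 2 lower, Cdkn1c and Rbl1 (-0.38 ± 0.07). Their median change was 0.61 in the endocardial and 0.61 in the coronary libraries. Cdkn1a, which encodes p21, was at 9.47, 11.1, 8.996 and 9.75 CPM at E13 and 31.6 and 27.6 CPM at E17 (1.59 ± 0.18, adjusted p = 4.4e-05). Cdkn1b, which encodes p27, was 1.42-fold higher (0.51 ± 0.05, adjusted p = 1.7e-05). The stage change was called more negative than in the coronary libraries for 13 replication and 11 mitotic members, of 25 tested in each list. Over all 15171 genes this was so for 2465. The coronary medians were -0.18 and -0.04.

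**Figure D3:**
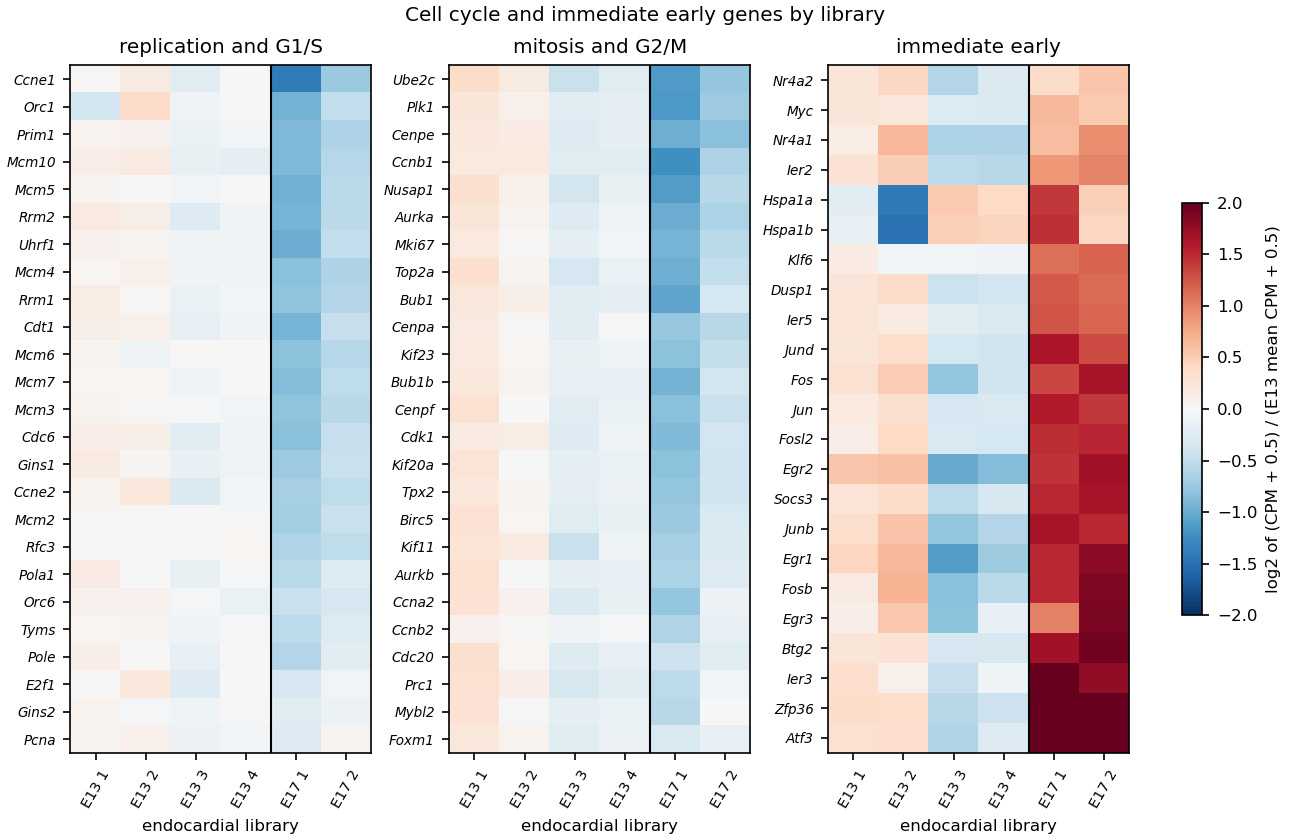
Levels of the tested replication, mitosis and immediate early genes in each endocardial library, as log2 of (CPM + 0.5) over (E13 mean CPM + 0.5); blue is below and red above the E13 mean. Both E17 columns are blue for most cell cycle genes and red for most immediate early genes, and E13 replicates 1 and 2 differ from replicates 3 and 4 in the right panel.

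Matrix genes changed in composition. In the fibrillar collagen and elastic fibre list 14 of 31 tested members were higher and 4 lower, with a median change of 0.58. Eln, which encodes elastin, was at 83.4, 54.04, 69.02 and 66.1 CPM at E13 and 1057 and 1194 CPM at E17. That was a 16.5-fold rise with no overlap (4.04 ± 0.18, adjusted p = 1.1e-07). The small proteoglycan gene Dcn was at 3.72, 2.59, 2.55 and 2.91 CPM at E13 and 125 and 136 CPM at E17 (5.45 ± 0.33, adjusted p = 5.5e-07). Lum, a related proteoglycan gene, was at 7.10, 5.48, 6.497 and 6.54 CPM at E13 and 118 and 122 CPM at E17 (4.22 ± 0.41, adjusted p = 1.5e-05). Both proteoglycan genes were low in every E13 library and high in both E17 libraries. Lox, which crosslinks elastin and collagen (3.13 ± 0.24, adjusted p = 3.5e-06), the microfibril and basement membrane linker Fbln2 (1.88 ± 0.19) and the 3 collagen VI genes Col6a1 (3.38 ± 0.30), Col6a2 (2.42 ± 0.29) and Col6a3 (3.13 ± 0.35) rose. Col3a1 fell from 1142, 1054, 1307 and 1188 CPM to 539 and 451 CPM (-1.24 ± 0.31, adjusted p = 0.0096). Fbn1 (-0.47 ± 0.11), Emilin1 (-0.32 ± 0.07) and Loxl3 (-1.20 ± 0.32) were also lower. The calls of Col3a1 and Fbn1 were lost without E17 replicate 2 and those of Emilin1 and Loxl3 without E17 replicate 1 (adjusted p up to 0.09, 0.058, 0.085 and 0.13). Of 23 tested basement membrane genes 12 were higher and 3 lower (Fn1, Col18a1 and Lama1), and 7 were higher without E17 replicate 2. Fn1, which encodes fibronectin, fell from 13559, 12717, 13932 and 14757 CPM to 8052 and 7301 CPM (-0.84 ± 0.15, adjusted p = 9.5e-04). Lama4, the laminin chain of endothelial basement membrane, was 1.35-fold higher (0.43 ± 0.09, adjusted p = 0.0034), a call lost without E17 replicate 2.

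Several of these matrix genes are also used as fibroblast markers. The 12 fibroblast markers summed to between 1859 and 2094 CPM at E13 and to 2546 and 2333 CPM at E17, with 5 of 12 called higher (Dcn, Lox, Lum, Col1a2 and Pdgfra) and 1 lower (Col3a1). Pdgfra, a receptor of mesenchymal cells, was at 20.7, 18.7, 13.3 and 12.5 CPM at E13 and 82.9 and 46.7 CPM at E17 (1.98 ± 0.42, adjusted p = 0.0035), a call lost without E17 replicate 1. Of the 2 E17 libraries Pdgfra was higher in replicate 1. Dcn (125 and 136 CPM), Lum (118 and 122 CPM) and Eln (1057 and 1194 CPM) were higher in replicate 2 by smaller ratios. Tcf21, a defining factor of cardiac fibroblasts, was at 0.113, 0.192, 0.04998 and 0.297 CPM at E13 and 0.164 and 0.0648 CPM at E17, near 0 in all 6 libraries. Col1a1 was not called (0.78 ± 0.51). The part of other cells in the matrix changes was not tested beyond these values.

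Genes of the endothelial surface that bind leukocytes and platelets were mostly higher. Of 23 tested leukocyte adhesion and chemokine genes 16 were higher and 1 lower, with a median change of 1.14. The coronary median over these genes was 0.90. Vcam1 was at 16.2, 16.6, 11.6 and 16.9 CPM at E13 and 118 and 120.0 CPM at E17 (2.96 ± 0.24, adjusted p = 4.8e-06). Sele, which encodes E-selectin, was at 7.85, 5.72, 4.50 and 4.58 CPM at E13 and 58.3 and 58.01 CPM at E17 (3.33 ± 0.21, adjusted p = 8.5e-07). In both genes the E17 libraries were nearly equal and stood well above E13. Selp, which encodes P-selectin, stayed at low CPM, with 0.752, 0.384, 0.750 and 0.654 at E13 and 6.88 and 6.16 at E17 (3.34 ± 0.29, adjusted p = 7.8e-06). Icam1 (1.20 ± 0.12) and Cxcl16 (0.94 ± 0.09) were higher, Madcam1 was the member that fell (-2.35 ± 0.49, a call lost without E17 replicate 1), and Icam2 was not called (-0.10 ± 0.11). Vwf, which encodes the platelet-binding von Willebrand factor, was at 554, 593, 589.6 and 585 CPM at E13 and 1409 and 1974 CPM at E17. The E13 values were close together and the E17 values apart from each other, all above E13 (1.54 ± 0.12, adjusted p = 2.6e-06). In the clotting and fibrinolysis list 8 of 18 tested members were higher and 3 lower. The 3 lower ones were Plat, the tissue plasminogen activator (-0.42 ± 0.11), the thrombin receptor gene F2rl3 (-1.03 ± 0.34) and F5, which encodes coagulation factor V (-1.04 ± 0.23). Calls were lost without E17 replicate 1 for Plat and F2rl3 and without E17 replicate 2 for F5 and F2rl3 (adjusted p up to 0.14, 0.25 and 0.055 for Plat, F2rl3 and F5). The 15 leukocyte markers in the table summed to between 21.04 and 28.1 CPM at E13 and to 44.9 and 40.1 CPM at E17. Of the 9 tested, 5 were called higher (Lyz2, C1qa, C1qb, C1qc and Csf1r), and the count was 1 without E17 replicate 1 or E13 replicate 3, 2 without E13 replicate 2 or 4, and 3 without E13 replicate 1 or either E17 coronary library. Ptprc, which encodes the CD45 that the gate excludes, was at or below 0.437 CPM in all 6 libraries.

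VEGF and angiopoietin genes moved in both directions. Of 18 tested members 5 were higher and 4 lower, and the count of higher members was 3 without E17 replicate 1 and 3 without E17 replicate 2. Vegfa was at 22.4, 26.8, 24.1 and 19.4 CPM at E13 and 57.7 and 65.7 CPM at E17 (1.41 ± 0.13, adjusted p = 1.1e-05). Kdr, the main VEGF receptor of endothelium, was at 1195, 1119.9, 1197 and 1265 CPM at E13 and 681 and 752 CPM at E17, 1.67-fold lower (-0.74 ± 0.14, adjusted p = 0.0016). Ligand and receptor moved in opposite directions, each without overlap between stages. Angpt2, an angiopoietin that antagonises Tie2 signalling, rose from between 1.87 and 2.48 CPM to 23.4 and 30.1 CPM (3.60 ± 0.17, adjusted p = 1.3e-07). Its receptor gene Tek was not called (0.05 ± 0.06), and the related Tie1 was 1.18-fold lower (-0.24 ± 0.07, adjusted p = 0.026). Vegfc (-0.83 ± 0.12) and Flt4 (-0.48 ± 0.11), ligand and receptor of lymphatic growth, were both lower, the latter call being lost without E17 replicate 1. Nrp2, a co-receptor, was higher (1.00 ± 0.15, adjusted p = 3.3e-04). The receptor gene Flt1 (0.40 ± 0.11) and the peptide gene Apln (1.40 ± 0.36) were called higher, and both calls, and that of Tie1, were lost without E17 replicate 1 or E17 replicate 2 (adjusted p up to 0.11, 0.087 and 0.16). The call of Apln was also lost in limma voom with batch as a random effect (adjusted p = 0.087).

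Genes of heart capillaries rose in part. Of 20 tested members 12 were higher and 1 lower, with a median change of 1.06, and the count was 7 without E17 replicate 2. Cd36, a fatty acid transporter, was at 16.05, 9.99, 8.70 and 11.8 CPM at E13 and 157 and 163 CPM at E17 (3.77 ± 0.34, adjusted p = 9.4e-06). Fabp4, a fatty acid carrier, was at 14.6, 9.85, 6.80 and 8.86 CPM at E13 and 69.7 and 109.8 CPM at E17 (3.14 ± 0.36, adjusted p = 5.7e-05). Lpl (1.09 ± 0.17) and Gpihbp1 (1.21 ± 0.36), the lipase and its endothelial anchor, were also higher, the latter call being lost without E13 replicate 3 or either E17 library. Cldn5, a tight junction gene of capillaries, was not called (0.21 ± 0.28), and Car4 was the member that fell (-2.92 ± 0.61), a call lost without E17 replicate 1. With batch as a random effect in limma voom, neither Gpihbp1 nor Car4 was called (adjusted p = 0.075 and 0.11). The coronary libraries had a median change of 2.80 over these genes. The endocardial change was called smaller than the coronary change for 12 members and larger for 2, Fabp5 (0.72 ± 0.17 for the difference) and Kcnn3 (1.89 ± 0.35). Over all 15171 genes these counts were 2465 and 2497. Flow-responsive genes rose in 9 of 17 tested members and fell in 1, Kdr. Klf2 (0.65 ± 0.11) and Klf4 (1.19 ± 0.17), transcription factors that shear stress induces, were among the 9, and Nos3 was not called (-0.20 ± 0.10).

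Glucocorticoid-responsive genes were higher in 14 of 19 tested members and lower in 1, Angptl4 (-0.62 ± 0.22), with a median change of 1.04. They rose in the coronary libraries as well, with a median change of 1.27. The call of Angptl4 was lost in 11 alternatives, among them those without E17 replicate 1 or E17 replicate 2 (adjusted p up to 0.3). Cebpd was at 26.6, 23.7, 16.7 and 15.46 CPM at E13 and 131 and 122 CPM at E17 (2.61 ± 0.16, adjusted p = 6.7e-07). E13 replicates 1 and 2 were above 3 and 4 for Cebpd and for the summed list, which was at 831, 770.5, 686 and 687 CPM at E13 and 1402 and 1457 CPM at E17, and immediate early genes split in the same way. The part of that split in the list was not tested beyond these values. Zbtb16 was under 0.5 CPM in every E13 library and at 5.13 and 7.07 CPM at E17 (4.46 ± 0.43, adjusted p = 1.5e-05). Klf9 (2.53 ± 0.22), Tsc22d3 (0.61 ± 0.08) and the receptor gene Nr3c1 (0.25 ± 0.08) were higher, the last without a call once E13 replicate 2, 3 or 4 or either E17 library was left out (adjusted p up to 0.13). Fkbp5 was not called (0.19 ± 0.09). Circadian clock genes were higher in 11 of 17 tested members and lower in none (median change 0.81, coronary median 0.30). Per1 was at 54.2, 51.1, 52.6 and 43.4 CPM at E13 and 121 and 126 CPM at E17 (1.29 ± 0.10, adjusted p = 3.5e-06). Bhlhe40 was at 30.8, 27.6, 20.9 and 22.1 CPM at E13 and 149 and 163 CPM at E17 (2.61 ± 0.17, adjusted p = 1.1e-06). Both stood clear of the E13 range, and E13 replicates 1 and 2 were above 3 and 4 for Bhlhe40 as for Cebpd. The time of day of collection is not given in the labels. Of the promoters of called clock genes, 3 of 14 (21.4%) held CACGTG, the E-box that the clock factors bind, and 7.15% of all promoters did. The 14 promoters belonged to 9 of the 11 called members, and the 3 with the motif to 2 genes.

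Hypoxia-responsive genes were higher in 11 of 19 tested members and lower in none. Ndrg1 was at 15.1, 9.85, 11.5 and 12.5 CPM at E13 and 171 and 169.8 CPM at E17 (3.79 ± 0.18, adjusted p = 1.3e-07). P4ha2, a collagen prolyl hydroxylase, was 3.42-fold higher (1.77 ± 0.09, adjusted p = 1.5e-07), and Egln3 was 3.17-fold higher (1.66 ± 0.19, adjusted p = 5.9e-05). Transcripts of the hypoxia-inducible factors Hif1a (0.01 ± 0.06) and Epas1 (0.25 ± 0.12) were not called. ACGTG, the core of the hypoxia response element and a part of the E-box, was found in 7 of 12 promoters of called members (58.3%) and in 19.6% of all. The 12 promoters belonged to 10 of the 11 called members. Sterol and fatty acid synthesis genes were lower in 15 of 29 tested members and higher in 4. Sqle, which encodes squalene epoxidase of cholesterol synthesis, was at 28.8, 33.8, 30.2 and 27.7 CPM at E13 and 9.39 and 12.6 CPM at E17 (-1.46 ± 0.14, adjusted p = 1.4e-05). Srebf2 (-0.77 ± 0.10), the factor that drives the pathway, fell too. The 4 that rose were the exporters Abca1 (1.07 ± 0.11) and Abcg1 (1.20 ± 0.14), with Srebf1 (0.51 ± 0.07) and Scd2 (0.27 ± 0.07, a call lost without E17 replicate 1 or E17 replicate 2). TCACNCCA, a form of the sterol regulatory element, was in 2 of 11 promoters of the members that fell (18.2%) and in 4.36% of all. The 11 promoters belonged to 9 of the 15 members that fell. Housekeeping lists stayed near the background or below it, with 1 of 36 cytosolic ribosomal protein genes called (Rplp1, 0.19 ± 0.05, lost without E17 replicate 1 or E17 replicate 2) and 8 of 34 nuclear respiratory chain genes, 7 of them lower (2 without E17 replicate 1) and Cox7a1 higher (1.59 ± 0.51), a call lost without E13 replicate 3, E13 replicate 4, E17 replicate 1 or E17 replicate 2.

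Genes for class I antigen presentation and interferon response rose in part, with 15 of 31 tested members higher and 2 lower, and 9 higher without E17 replicate 1. Irf1 was at 47.4, 44.8, 31.8 and 31.6 CPM at E13 and 167 and 146 CPM at E17 (2.00 ± 0.16, adjusted p = 3.6e-06). The E13 libraries split for Irf1 as they did for Cebpd and the immediate early genes, replicates 1 and 2 being the higher. The peptide transporter genes Tap1 (1.17 ± 0.16) and Tap2 (1.16 ± 0.14) rose, Oas1a (-1.64 ± 0.43, a call lost without E17 replicate 2) fell, and B2m was not called (0.12 ± 0.08). For 20 members the change was called smaller than in the coronary libraries and for 3 larger. Over all 15171 genes these counts were 2465 and 2497. The coronary median was 1.47 against 0.45 in endocardium.

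Immediate early genes, which cells induce within minutes of a stimulus, were higher in 19 of 23 tested members and lower in none, with a median change of 1.50. Cell isolation is a known stimulus for these genes. The summed level of the list was between 3642 and 5706 CPM at E13 and 12762 and 12769 CPM at E17. In the coronary libraries it was between 4331 and 5495 CPM at E13 and 8932 and 8120 CPM at E17, with a median change of 0.81. The batches that the labels number, without saying of which step, each held a single stage, so the part of cell isolation cannot be told apart from stage. Within E13, replicates 1 and 2 were above replicates 3 and 4 for most members. Against E13 replicates 1 and 2 only, 1769 genes were called higher and 1779 lower over the whole table, and against replicates 3 and 4 only, 1821 and 1682. Promoters of the 2 called members that held a CArG box, the site of serum response factor, are printed from the same RefSeq table with the box in capitals. Zfp36, which destabilises cytokine mRNAs, is at chr7:28379179-28379478 (-), and Egr2, a zinc finger transcription factor, at chr10:67537316-67537615 (+).
Zfp36: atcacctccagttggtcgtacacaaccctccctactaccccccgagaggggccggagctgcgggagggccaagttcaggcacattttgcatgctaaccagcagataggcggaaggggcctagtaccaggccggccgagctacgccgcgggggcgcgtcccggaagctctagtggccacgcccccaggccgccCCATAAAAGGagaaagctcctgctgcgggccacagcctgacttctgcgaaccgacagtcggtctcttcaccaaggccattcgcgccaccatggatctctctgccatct
Egr2: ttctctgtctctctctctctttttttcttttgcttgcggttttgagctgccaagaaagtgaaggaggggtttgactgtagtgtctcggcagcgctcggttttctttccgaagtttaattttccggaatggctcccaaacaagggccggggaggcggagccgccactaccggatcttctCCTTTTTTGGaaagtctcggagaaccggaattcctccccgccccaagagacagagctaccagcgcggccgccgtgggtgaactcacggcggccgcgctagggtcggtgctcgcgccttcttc
Of the promoters matched to called members, 5 of 19 (26.3%) held a CArG box, against 1.63% of all, and 2 of 19 (10.5%) held the cAMP response element TGACGTCA, against 1.79%. These 19 promoters belonged to 15 of the 19 called members. Several promoters of Egr2 are listed in the table, so the 5 promoters with a CArG box belong to these 2 genes.

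Zfp36 was at 97.8, 96.6, 51.1 and 56.9 CPM at E13 and 341 and 404 CPM at E17 (2.30 ± 0.25, adjusted p = 4.2e-05). Egr2 was at 39.3, 40.1, 12.99 and 14.4 CPM at E13 and 73.4 and 86.3 CPM at E17 (1.56 ± 0.41, adjusted p = 0.011). In both, the E13 libraries formed 2 levels below the E17 level, and the call of Egr2 was lost without E17 replicate 2 (adjusted p up to 0.078). Atf3, a stress-induced factor, was at 67.6, 69.5, 35.9 and 45.9 CPM at E13 and 296 and 296 CPM at E17 (2.43 ± 0.21, adjusted p = 8.8e-06). Fos was at 816, 935, 385 and 498 CPM at E13 and 1661 and 2058 CPM at E17 (1.50 ± 0.28, adjusted p = 0.0016). Jun (1.50 ± 0.18) and Fosb (1.69 ± 0.36) rose, as did Egr1 (1.66 ± 0.39), whose call was lost without E17 replicate 2. Jund was higher too (1.47 ± 0.19), with 52.6% of its exon bases opposite another gene. Changes of Nr4a1 (0.78 ± 0.31) and Nr4a2 (0.47 ± 0.25) and of the heat shock genes Hspa1a (1.02 ± 0.71) and Hspa1b (1.03 ± 0.75) were not called.

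By fold, the largest rise among genes of at least 10 CPM was that of Cyp1b1, a cytochrome P450 that oxidises steroids and retinoids. It was at 0.263, 0.0961, 0.150 and 0.178 CPM at E13 and 6.77 and 14.4 CPM at E17 (5.85 ± 0.48, adjusted p = 5.1e-06). The protease inhibitor gene A2m was at 6.201, 6.44, 3.95 and 4.46 CPM at E13 and 109 and 199 CPM at E17 (4.85 ± 0.23, adjusted p = 1.3e-07). Tmtc1, a mannosyltransferase gene of the endoplasmic reticulum, was at 2.41, 1.297, 1.75 and 2.38 CPM at E13 and 44.5 and 55.4 CPM at E17 (4.67 ± 0.22, adjusted p = 1.3e-07). In each of them all E13 values were near the bottom of the range. Also among the 15 largest rises were Clic5 (4.35 ± 0.29), Ndufa4l2 (4.31 ± 0.16), Slit3 (3.96 ± 0.38), Pcp4l1 (3.88 ± 0.36), Ephx2 (3.83 ± 0.20), the plasma protein gene Ahsg, which encodes fetuin A (4.13 ± 0.32), and Cp, which encodes ceruloplasmin (3.69 ± 0.28). In the plasma protein list 9 of 15 tested members were higher and 3 lower (Apob, Itih3 and Serpinf1), with no call for Itih3 without E17 replicate 2 or for Serpinf1 in limma voom with batch as a random effect (adjusted p = 0.059). Alb and Afp, which define hepatocytes, had at most 0.0546 CPM in the 6 libraries. By difference in CPM, the largest rises included Hmcn1, a giant matrix protein gene (1.23 ± 0.10), the prohormone processing gene Cpe (1.57 ± 0.16) and the fatty acid carrier gene Fabp5 (1.12 ± 0.12).

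Among the largest falls by fold were Igfbp2, an IGF-binding protein gene (9.62, 11.7, 9.75 and 10.6 CPM at E13 and 0.873 and 0.519 CPM at E17, -3.87 ± 0.38, adjusted p = 1.8e-05). The kinase gene Camk2a was at 37.1, 49.2, 44.3 and 43.5 CPM at E13 and 5.35 and 5.57 CPM at E17 (-2.99 ± 0.24, adjusted p = 4.3e-06). The exchanger gene Slc24a4 was at 39.3, 38.5, 44.6 and 40.97 CPM at E13 and 5.18 and 6.09 CPM at E17 (-2.86 ± 0.19, adjusted p = 1.1e-06). All 3 were separated by stage. Apob (-2.75 ± 0.48), Astn1 (-2.59 ± 0.21), Kif21b (-2.41 ± 0.25), Chst2 (-2.01 ± 0.21), Igsf9 (-1.92 ± 0.21), the clearance receptor gene Lrp1 (-1.92 ± 0.41) and the erythropoietin receptor gene Epor (-1.90 ± 0.21) fell too. By difference in CPM, Adam19, a metalloprotease gene of endocardial cushions (-1.54 ± 0.13), Mmp15, a membrane metalloprotease gene (-1.24 ± 0.10), Nrep (-1.05 ± 0.11) and Map1b (-1.03 ± 0.08) were among the largest falls. The fall of Cwc22 (-2.05 ± 0.59, adjusted p = 0.018) came with uneven E13 values of 89.8, 252, 87.8 and 62.98 CPM against 29.4 and 29.9 CPM, and near-identical copies of this gene make its counts uncertain. Its call was lost without E17 replicate 1 or E17 replicate 2 (adjusted p up to 0.12). Hbb-y, an embryonic globin of blood cells, had the largest fall by fold among genes of at least 10 CPM at E13 whose values did not overlap, from 40.8, 2.26, 63.8 and 115 CPM to 0.218 and 0.324 CPM (-7.65 ± 2.27, adjusted p = 0.022), a call also lost without E17 replicate 1 or E17 replicate 2 and in limma voom with batch as a random effect (adjusted p = 0.64 in the last).

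The stage change differed from that of coronary endothelium for 4962 genes (32.7%) in the interaction test of the same fit. The endocardial change was higher for 2497 of them and lower for 2465. Of the genes called higher in endocardium 1278 were among the 4962, and of those called lower 1040. Npr3 fell in the coronary libraries (-4.27 ± 0.22) while it was slightly higher in endocardium, a difference of 4.74 ± 0.27 (adjusted p = 2.9e-07). Over the endocardial identity list the coronary median was -2.25, and the difference was called with the endocardial change higher for 16 of 19 members and lower for 1, Sox18 (-0.96 ± 0.26). Opposite directions were also seen for Eln, with a coronary change of -2.07 ± 0.20 (difference 6.11 ± 0.28, adjusted p = 9.7e-08), and for Lum, with -2.10 ± 0.43 (difference 6.32 ± 0.62, adjusted p = 1.3e-05). Lum was uneven in the E13 coronary libraries (mean 94.3, SD 45.1 CPM). The fibroblast markers summed to 2811, 5500, 7298 and 5093 CPM in these libraries and to 4960 and 2263 CPM in the E17 coronary libraries. The part of such cells in the coronary changes was not tested. Kdr rose in coronary cells (1.37 ± 0.13) and fell in endocardium (difference -2.11 ± 0.19, adjusted p = 7.5e-06). Hmga2 fell in both, further in endocardium (coronary -1.30 ± 0.07, difference -1.54 ± 0.10, adjusted p = 9.6e-07). For Cd36 and Clic5, which rose in both, the difference was not called (-0.56 ± 0.47 and -0.44 ± 0.41, adjusted p = 0.41 and 0.45). At E17 the mean of Cd36 was 2219 CPM in coronary and 160 CPM in endocardial libraries, and that of Clic5 215 and 20.6 CPM. The part of coronary cells in the endocardial values was not tested. The coronary gate required low Emcn at E17 only, and this change of gate cannot be told apart from a change of the cells.

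**Figure D4:**
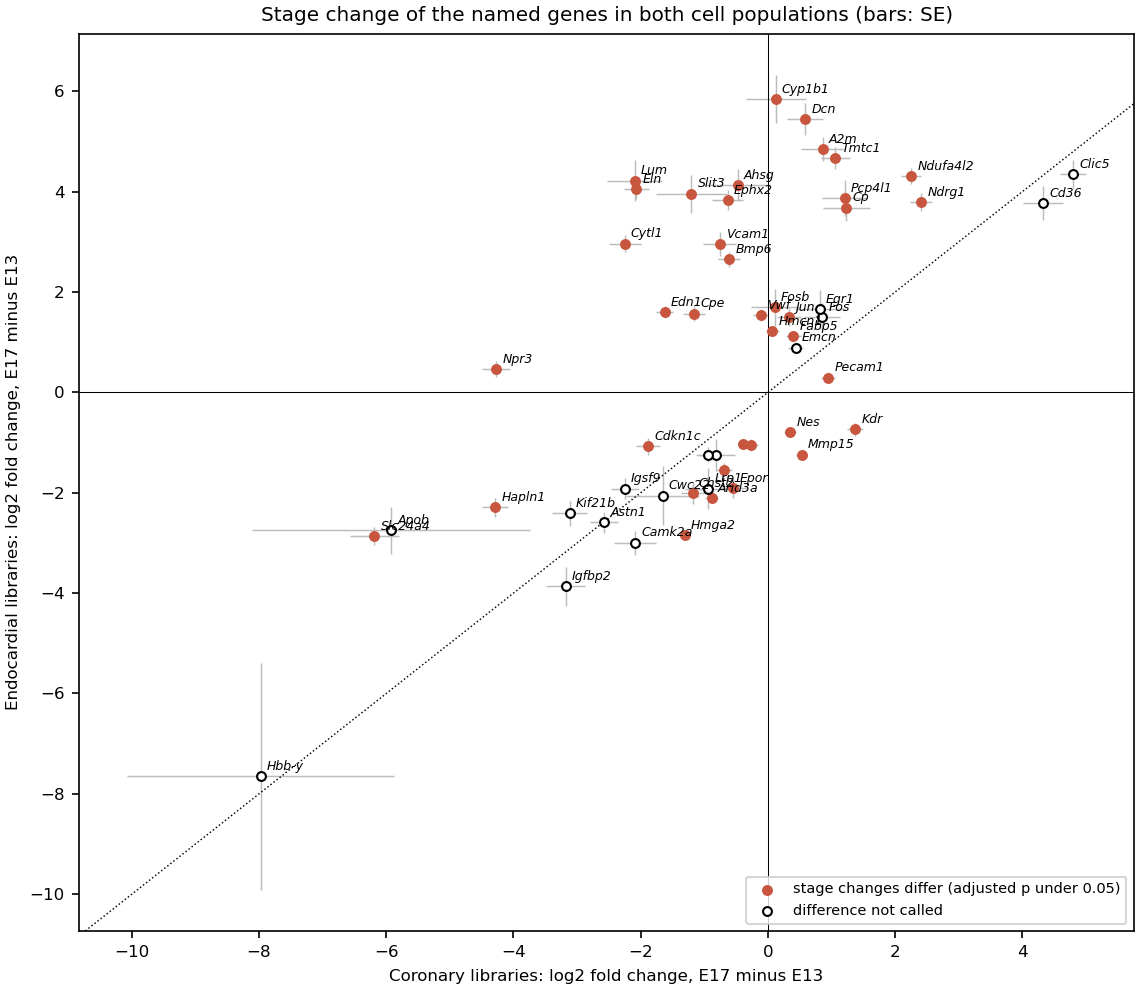
Change between E13 and E17 in coronary (x axis) and endocardial (y axis) libraries for the genes with the largest changes and the markers, as log2 fold change with SE bars; on the dotted line both changes are equal. Filled points have a called difference between the populations, and the unlabelled points are falls named for their difference in CPM. Npr3, Eln, Lum, Cytl1 and Edn1 lie in the quadrant of endocardial rise and coronary fall, and Kdr, Nes and Mmp15 in the opposite one.

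Markers of other cell types were summed per library. The 17 cardiomyocyte markers summed to between 307 and 476 CPM at E13 and to 419 and 349 CPM at E17, with 2 of 17 higher (Tnnt2 and Tnni3) and 3 lower (Tnni1, Myl4 and Myl7). Without E17 replicate 1 the calls of Tnnt2, Tnni3 and Myl7 were lost, without E13 replicate 1 or 2 that of Myl7, and without E17 replicate 2 those of Tnni3 and Myl4. The 12 mural cell markers summed to between 251 and 274 CPM at E13 and to 181 and 179 CPM at E17, with Cspg4 higher and Notch3 and Des lower (the calls of Cspg4 and Des were lost without E17 replicate 2, and that of Cspg4 also without E17 replicate 1 or E13 replicate 2 or 4), and the smooth muscle gene Acta2 at 10.6, 5.19, 8.30 and 5.23 CPM at E13 and 6.55 and 5.25 CPM at E17. The 10 epicardial markers were at 17.7 to 21.6 CPM at E13 and 14.5 and 15.9 CPM at E17, with Lrrn4 called lower. The 8 platelet markers summed to between 17.8 and 21.9 CPM at E13 and to 28.5 and 26.1 CPM at E17. Erythroid markers varied between libraries more than between stages, from 22.2 to 499 CPM at E13 and with 473 and 80.3 CPM at E17, which is beside the fall of Hbb-y. Their part in the gene changes was not tested.

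**Figure D5:**
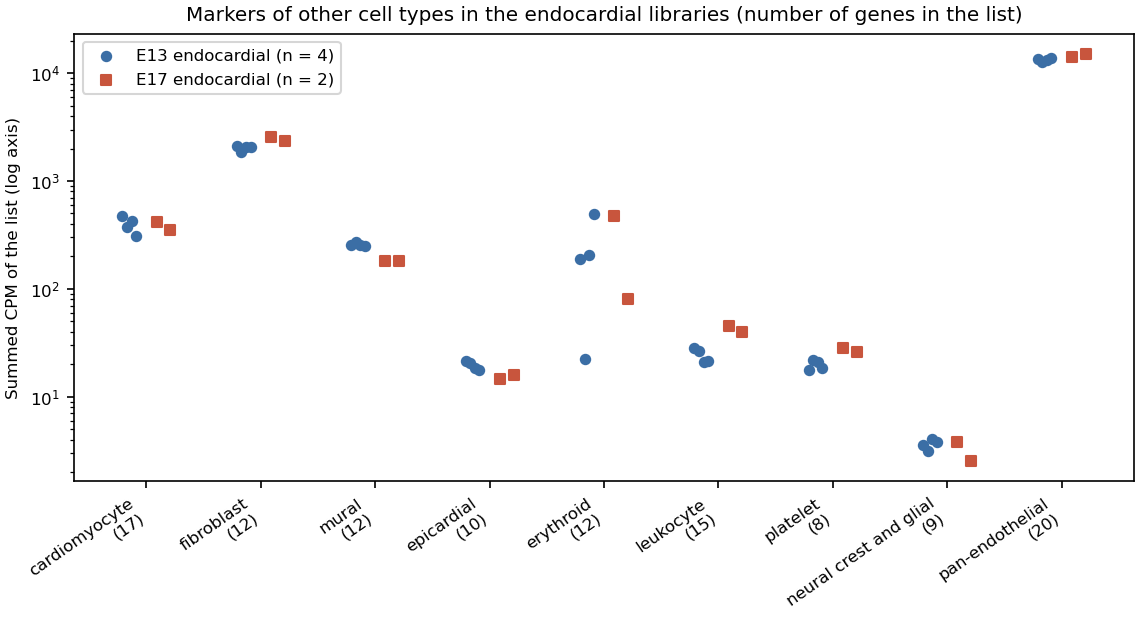
Summed CPM of marker lists for other cell types and of pan-endothelial genes in each endocardial library (log axis), with the number of genes in each list in parentheses; circles are the 4 E13 and squares the 2 E17 libraries. Fibroblast, leukocyte and platelet sums are higher in both E17 libraries, mural sums are lower, and cardiomyocyte and erythroid sums overlap between stages.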

How the data were processed

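Total RNA from sorted cells was made into polyA libraries that do not mark strand and read as single reads. The authors deposited RSEM expected counts per gene for 12 libraries, made with CASAVA 1.8.2, cutadapt 1.3 and RSEM 1.2.3 on GRCm38, per the submitters' processing notes. These expected counts, which RSEM can split between similar genes, were rounded to integers. The edgeR 4.0.16 function filterByExpr (minimum count 10, minimum total 15) selected the genes to test, and library sizes were scaled by TMM. A quasi-likelihood fit of 4 group means over all 12 libraries gave the endocardial contrast E17 minus E13 and its difference from the coronary contrast (8 residual degrees of freedom), with Benjamini-Hochberg adjustment and SE taken as the size of the log2 change over the square root of F. Replicate libraries differed beyond sampling noise. The fit recovered 4-fold changes planted in 200 genes of simulated counts. The simulated libraries were independent and had no batch effect, so the confounding of stage with batch was not covered. Exon overlaps came from a GENCODE annotation of GRCm38, which may differ from the annotation used for counting. Promoters came from RefSeq (GRCm38.p6) and were searched on both strands.

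The members and the gene lists were chosen with earlier results of these data known. Named genes are the 15 largest rises and falls by fold (adjusted p under 0.05, at least 2-fold, at least 10 CPM in the higher group, no overlap, no predicted genes or pseudogenes), the 8 largest by CPM difference, up to 6 members per list with the smallest adjusted p, the most abundant uncalled member, members of small counts, members that complete a statement, and the markers. Fluorescent reporter transcripts were not analysed here. A few genes are not reported here.

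Alternatives were DESeq2 1.42.0, limma 3.58.1 voom with batch as a random effect, other size factors, no or a stricter filter, endocardial libraries only, a replicate block, and leaving out each library in turn. Fits to E13 replicates 1 and 2 only and 3 and 4 only were added after seeing the data.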

Additional observations from a re-analysis of the deposited data

Results flagged for a closer look

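Among the 4 E13 endocardial libraries, 1 stood apart from the other 3 for 9 of the 234 genes named in the text, the gap to its nearest neighbour exceeding Dixon's critical share of the range. Chance alone marks about 1 in 20 groups in this way. Replicate 3 was apart for 4 of the 9 genes. It was high for the chloride channel gene Clic5 (1.299 CPM against 0.892 to 0.940 in the other 3) and for the lysozyme gene Lyz2 (0.350 against 0.144 to 0.178 CPM). It was low for Serpinf1 (6.00 against 7.61 to 7.93 CPM) and for Vcam1 (11.6 against 16.2 to 16.9 CPM). Replicate 2 was high for Cwc22 (252 against 63.0 to 89.8 CPM) and low for Smad7 (64.1 against 71.7 to 72.3 CPM). Replicate 1 was low for Lin28b (7.25 against 10.2 to 10.6 CPM) and high for Slit3 (8.94 against 7.50 to 7.61 CPM). Replicate 4 was high for Tgfbr1 (89.5 against 86.5 to 86.9 CPM).

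Of the 50 genes named for the size of their change or as markers of the gates, 34 had an endocardial stage change that differed from the coronary one in edgeR's interaction test, against 32.7% of all genes. Most of the 50 were chosen for a large endocardial change, which makes a called difference more likely. For 24 of them the endocardial log2 change was higher. The differences were Lum (6.32), Eln (6.11), Cyp1b1 (5.73), Slit3 (5.16), Dcn (4.87), Npr3 (4.74), Ahsg (4.61) and Ephx2 (4.46) for the widest, then A2m (3.99), Tmtc1 (3.60), Slc24a4 (3.33), Edn1 (3.22), Cpe (2.73), Pcp4l1 (2.67), Cp (2.45) and Ndufa4l2 (2.06), and Hapln1 (2.00), Vwf (1.66), Fosb (1.58), Ndrg1 (1.38), Jun (1.17), Hmcn1 (1.15), Cdkn1c (0.80) and Fabp5 (0.72) for the narrowest. For the other 10 the endocardial change was lower, with differences of Map1b (-0.65), Pecam1 (-0.65), Nrep (-0.79), Chst2 (-0.82), Adam19 (-0.85), Nes (-1.14), Arid3a (-1.22), Epor (-1.36), Hmga2 (-1.54) and Mmp15 (-1.77). The set holds the matrix genes Lum, Eln and Dcn and the marker Npr3 on one side, and the sort reporter's gene Nes and the CD31 gene Pecam1 on the other.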

How the results depend on the processing

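Leaving out 1 library at a time, the count of genes called higher at E17 was between 1578 and 2688, that of genes called lower between 1323 and 2523, and that of genes whose change differed from the coronary change between 3568 and 5343. The E17 endocardial libraries weighed most on the first 2 counts. Without replicate 1, 1605 genes were higher and 1323 lower, and without replicate 2 they were 1578 and 1600. Fitting 1 E17 endocardial library assumes that it varies like the other groups. Over the other alternatives, planned or added after seeing the data, the 3 counts stayed within 1.5 times their first value: higher from 1769 to 2833, lower from 1682 to 2636 and differing from 4040 to 5146. Upper-quartile scaling gave 2329 higher and 2636 lower genes, and the DESeq2 Wald test 2369 and 2478. Of the 234 named genes, 204 were called, 146 of them in every alternative run, 58 lost the call in at least 1, 13 others gained one, and none changed direction while called. The call was lost for 46 without E17 replicate 1 and for 38 without E17 replicate 2. The cause was not tested, beyond the smaller number of libraries in those fits.

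The library titles carry replicate numbers, but same-numbered E13 and E17 endocardial libraries lay in different batches. Their deviations from the group means had r = -0.055 for number 1 and 0.031 for number 2 over 9313 genes. With 2 libraries at E17 the E17 deviations are mirror images of each other, so these values cannot decide whether the numbers pair. A fit with this number as a replicate block called 2182 genes higher, 2167 lower and 4702 different from coronary. With 2 libraries at E17, genes under about 1 CPM have few reads, and their changes carry wide errors.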

Other observations

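Vessel-type marker genes moved in both directions in the endocardial libraries. Of 14 tested venous markers 7 were higher and 2 lower (median change 0.69), and of 20 arterial markers 6 were higher and 6 lower (median change 0.14), with 3 lower without E17 replicate 1 and 2 without E17 replicate 2. Tll1, a metalloprotease gene of heart and veins, was at 13.6, 10.3, 12.1 and 10.05 CPM at E13 and 54.5 and 72.5 CPM at E17 (2.46 ± 0.17, adjusted p = 1.5e-06 in edgeR's quasi-likelihood test). The venous factor gene Nr2f2 was not called (-0.08 ± 0.05). The arterial connexin gene Gja4 (-0.35 ± 0.10) and the regulator gene Mecom (-0.60 ± 0.09) were lower, the call of Gja4 being lost without E13 replicate 3 or either E17 library. Of 10 lymphatic markers 4 were higher and 3 lower, with 1 lower without E17 replicate 1 and 2 higher under the stricter filter. Lyve1, a hyaluronan receptor gene that lymphatic and some endocardial and macrophage cells express, was at 18.002, 13.1, 13.8 and 18.4 CPM at E13 and 111 and 179 CPM at E17 (3.19 ± 0.19, adjusted p = 5.2e-07). Prox1, the master factor gene of lymphatic fate, was at 34.5, 38.1, 29.5 and 28.5 CPM at E13 and 68.98 and 53.9 CPM at E17 (0.91 ± 0.12, adjusted p = 1.7e-04), while Foxc2 (-0.72 ± 0.14) and Flt4 fell. The coronary change of Lyve1 was not called (-0.07 ± 0.27), and the difference between the populations was (3.26 ± 0.33, adjusted p = 1.8e-05), as it was for Prox1 (3.09 ± 0.20, adjusted p = 7.2e-07).

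Of 21 tested Wnt pathway genes 4 were higher and 1 lower, with a median change of 0.27 against a coronary median of -3.16. The difference was called with the endocardial change higher for 15 members and lower for 4. Over all 15171 genes these counts were 2497 and 2465. The ligand gene Wnt2 was at 6.95, 3.51, 4.95 and 7.08 CPM at E13 and 28.4 and 18.8 CPM at E17 (2.07 ± 0.25, adjusted p = 8.3e-05). Wnt4, another ligand gene, was at 32.9, 27.3, 35.1 and 36.3 CPM at E13 and 16.4 and 8.49 CPM at E17 (-1.38 ± 0.24, adjusted p = 0.001), so the ligands moved in opposite directions. The negative regulator Nkd1 was higher (0.85 ± 0.15), and Wnt9b (1.70 ± 0.34) and Apcdd1 (0.53 ± 0.17) were called higher with calls that were lost without E17 replicate 1, which left 2 higher members, and that of Wnt9b also in limma voom with batch as a random effect (adjusted p = 0.062). The count of higher members was 8 without E13 coronary replicate 1 and 7 with endocardial libraries only, and that of lower members 2 without either E17 endocardial library. Thrb, which encodes a thyroid hormone receptor, was at 1.99, 1.54, 1.90 and 1.55 CPM at E13 and 8.46 and 10.7 CPM at E17 (2.45 ± 0.22, adjusted p = 1.0e-05) and fell in the coronary libraries (-3.04 ± 0.41, adjusted p = 4.3e-06 for the difference). Of 20 tested genes of valve formation and mesenchymal transition 2 were higher (Vcan and Msx1) and 1 lower (Tgfbr3), and without E17 replicate 1 the calls of Msx1 and Tgfbr3 were lost. The counts were 4 and 2 without E13 coronary replicate 1, 6 and 2 with endocardial libraries only, and the lower count was 2 without E13 coronary replicate 3. Junction genes were divided, 9 of 25 tested being higher and 6 lower (5 and 3 without E17 replicate 2). Tjp1, which encodes the scaffold ZO-1, fell (-0.48 ± 0.10, adjusted p = 0.0035) and Cldn11 rose (1.81 ± 0.16, adjusted p = 7.9e-06).

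Energy genes showed small changes beside the large rises of the fatty acid carriers. Of 21 tested glycolysis genes 6 were higher and 3 lower, with a median change of 0.20, and the count of higher members was 3 without E17 replicate 1, with none left without E17 replicate 2, and that of lower members 1 without E17 replicate 1. Hk2, a hexokinase gene, was at 16.1, 17.96, 16.8 and 10.8 CPM at E13 and 7.31 and 8.04 CPM at E17 (-1.01 ± 0.21, adjusted p = 0.003), while Gapdh was not called (0.05 ± 0.11). Of 29 tested genes of fatty acid uptake and oxidation 6 were higher and 6 lower. All 6 that fell act on fatty acid transfer or oxidation in mitochondria, among them Cpt1a, which loads fatty acids for entry, at 94.9, 94.3, 98.4 and 96.8 CPM at E13 and 61.8 and 55.6 CPM at E17 (-0.71 ± 0.07, adjusted p = 1.2e-05). Acadm, an enzyme of the same pathway, was higher (0.30 ± 0.05, adjusted p = 0.0011). Matrix proteases and their inhibitors were divided, with 6 of 23 tested members higher and 5 lower, or 3 and 3 without E17 replicate 1, with 3 lower also without E17 replicate 2. The inhibitor gene Timp3 was at 299.8, 271, 258 and 275 CPM at E13 and 676 and 753 CPM at E17 (1.37 ± 0.08, adjusted p = 4.2e-07), with 21.3% of its exon bases opposite those of Syn3, and Mmp14, a membrane metalloprotease gene, was at 494, 494, 528 and 540.3 CPM and 384 and 348 CPM (-0.49 ± 0.06, adjusted p = 1.5e-04). Of 20 tested pan-endothelial genes 7 were higher and 4 lower, or 3 and 2 without E17 replicate 2, with 2 lower also without E17 replicate 1. Ets1, a transcription factor gene of endothelium, fell from 612, 609, 609 and 618 CPM to 387 and 362 CPM (-0.71 ± 0.10, adjusted p = 1.9e-04), and Cdh5, which encodes VE-cadherin, was not called (-0.27 ± 0.11). Ets1 rose in the coronary libraries (0.79 ± 0.09), with a difference of -1.50 ± 0.13 (adjusted p = 7.1e-06).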
